A study of Mus musculus with 6 samples.

Results

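The 35 genes described here encode the folding, quality control and degradation machinery of the endoplasmic reticulum (ER), the compartment where secreted and membrane proteins are made. They were taken as the rows of the count table whose gene symbol is on a list of 35 names, and all 35 were found among 21671 named genes. All 35 also passed the filter on low counts, which 14809 genes passed in all. The libraries came from subcutaneous tumours of CD1 nude mice that had been injected with transformed hepatoblasts, progenitors of hepatocytes and bile duct cells. Every tumour carried the conditional vector TtRMPVIR shST18, in which doxycycline induces a short hairpin RNA against St18, a zinc finger transcription factor. The 3 untreated libraries bear the genotype label wild type, and the 3 doxycycline libraries bear the label ST18 knockdown. The latter were taken 4 h after a first oral gavage of 200 mg/ml doxycycline in 300 µl of water. Doxycycline, the gavage and the hairpin cannot be told apart in this design, since the labels describe no animals given the drug without the hairpin, and they give neither the age of the animals nor whether each library came from its own animal. A p-value here thus covers the spread of these libraries, which may be partly technical.

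Proteins enter the ER through the Sec61 channel and are folded there by the HSP70 chaperone BiP (Hspa5), by the lectin chaperones calnexin and calreticulin, and by disulfide isomerases. Molecules that do not fold are marked by EDEM proteins and passed back to the cytosol by a complex around SEL1L and the ubiquitin ligase HRD1 (Syvn1), a route called ER-associated degradation (ERAD). When unfolded protein builds up, the sensors ATF6, IRE1 (Ern1) and PERK (Eif2ak3) set off the unfolded protein response. ATF6 is cut into an active transcription factor, IRE1 splices Xbp1 mRNA into its active form, and PERK slows translation while favouring ATF4. Counts per gene see neither the cutting of ATF6 nor the splicing of Xbp1.

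Total counts per library ran from 12090309 to 16169043, and the top 10 genes took 0.948% to 1.09% of them. For St18, the target of the hairpin, replicates 1, 2 and 3 had 12, 23 and 19 counts untreated and 34, 12 and 61 with doxycycline, so the knockdown label is not matched by a lower count. Of the hepatoblast and hepatocyte markers, Krt18 was at 49.6 to 87.9 CPM (counts per 1000000, after normalisation) and Sox9 at 25.8 to 36.2 CPM. Krt8 (21.3 to 89.9 CPM) and Krt19 (1.37 to 29.0 CPM) varied more between libraries. Alb had 0 to 2 counts and Ttr 0 or 1 count per library. Of 7 such markers tested, none was called lower or higher after doxycycline. Markers of other cells differed between the groups. After doxycycline 10 of 15 skeletal muscle, 4 of 12 fibroblast and 3 of 8 macrophage markers tested were higher, against 2.84% of all genes. Of 7 neutrophil markers 1 was lower, against 2.18% of all genes. The summed muscle markers lay between 72.5 and 213 CPM in the untreated libraries and at 1359, 2738 and 404 CPM in doxycycline replicates 1, 2 and 3. The sums ran from 1375 to 1403 against 1769 to 2037 CPM for fibroblast, 324 to 382 against 443 to 605 CPM for macrophage, and 149 to 202 against 83.1 to 125 CPM for neutrophil markers, and no marker of these lists was at 0 in every library. Without untreated replicate 1, 2 or 3 the counts of called markers were 0 for muscle, macrophage and neutrophil and 2 for fibroblast. The muscle count was 1 in limma-voom, 3 with no filter on low counts and 2 without doxycycline replicate 1. It was 14 in DESeq2, 13 with a replicate block and 12 without doxycycline replicate 3. In bulk tissue, fewer cells of a type and less RNA per cell cannot be told apart. Plasma cells are rich in ER, and of 5 plasma and B cell markers tested none passed the threshold (0 also at an unadjusted p under 0.05). Their defining genes Igj and Mzb1 were at no more than 0.618 and 0.378 CPM, and the sum of the list, 155 to 180.1 CPM over all libraries, was mostly Sdc1 (141 to 164 CPM). The part of these cells in the results below was not tested. A second principal component (27.6% of the variance) set doxycycline replicate 2 apart from the other doxycycline libraries.

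Promoter sequences were searched for the sites known from ER stress, and a minority of the members held one. The ER stress response element (ERSE) is the site that ATF6 and spliced XBP1 are known to use; it reads CCAAT, 9 bases of any kind, then CCACG. Of 28 members with a RefSeq promoter window (250 bases before to 50 after an annotated start, build GRCm38.p6, 29 windows), 9 held an exact ERSE on either strand, against 39 of 32851 windows of all genes (0.119%). The sites are listed below on the strand that reads CCAAT first, with the matched bases in capitals. They belong to 4 of the 6 chaperones (Hyou1 and Hspa13 had no window), a disulfide isomerase, a co-chaperone, the secreted factor Creld2 and 2 genes of degradation, and Hsp90b1 has a pair of sites.
Hspa5: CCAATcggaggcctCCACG
Hsp90b1: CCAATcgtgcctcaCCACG
Hsp90b1: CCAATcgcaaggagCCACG
Calr: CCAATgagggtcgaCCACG
Canx: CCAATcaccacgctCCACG
Dnajc3: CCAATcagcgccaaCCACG
Pdia6: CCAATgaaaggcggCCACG
Creld2: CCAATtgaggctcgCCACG
Derl3: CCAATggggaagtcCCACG
Syvn1: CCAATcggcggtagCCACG

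Among the 9 genes with an ERSE, 1 was lower after doxycycline (Syvn1) and the median log2 fold change was -0.11. Among the 19 members with a window and no exact ERSE, 2 were lower (Herpud1 and Sdf2l1) and the median was -0.14. Over all genes 2.18% were lower, and the calls in these sets are too few to compare them. The related ERSE-II (ATTGG, 1 base, CCACG) was found in 12 of all windows (0.0365%), those of Herpud1 and Dnajb11 included. The composite site used by ATF4, TGATGNAAN, is in 1299 windows (3.95%) and in that of 1 member, Herpud1, and the site called UPRE, TGACGTGG, is in 222 windows (0.676%) and in no member's. All were searched on both strands, and the ERSE-II of Herpud1 does not overlap its composite site. A match is a run of letters, not proof of binding, and Hyou1 and Atf6, described below, are among 7 members with no window in the table used.

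Windows are printed below, 5′ to 3′, for 3 members that were lower after doxycycline and for Hspa5, the member most often used to gauge ER stress, with matches to any of these motifs in capitals. Herpud1 (chr8:94386179-94386478, plus strand) reads TGATGcAAc on the opposite strand, with its outer base 113 bases before the start, and ATTGGgCCACG from 52 bases before it. Hspa5 (chr2:34771840-34772139, plus strand) has its ERSE from 65 bases before the start, and Syvn1 (chr19:6046326-6046625, plus strand) from 44 bases before it. Sdf2l1 (chr16:17132334-17132633, minus strand) has no exact match to any motif searched. Only 1 annotated start was given for each of these 4 genes.
Herpud1: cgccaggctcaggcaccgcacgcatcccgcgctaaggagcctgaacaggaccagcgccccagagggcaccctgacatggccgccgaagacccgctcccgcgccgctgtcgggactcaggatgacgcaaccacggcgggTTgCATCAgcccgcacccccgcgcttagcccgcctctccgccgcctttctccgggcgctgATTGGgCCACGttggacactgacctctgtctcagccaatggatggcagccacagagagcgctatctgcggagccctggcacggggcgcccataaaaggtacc
Syvn1: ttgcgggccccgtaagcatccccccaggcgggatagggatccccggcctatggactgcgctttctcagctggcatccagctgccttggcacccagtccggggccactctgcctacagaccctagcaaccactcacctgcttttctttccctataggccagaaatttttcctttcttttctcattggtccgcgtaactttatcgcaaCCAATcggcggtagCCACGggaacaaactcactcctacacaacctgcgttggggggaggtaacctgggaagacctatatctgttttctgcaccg
Sdf2l1: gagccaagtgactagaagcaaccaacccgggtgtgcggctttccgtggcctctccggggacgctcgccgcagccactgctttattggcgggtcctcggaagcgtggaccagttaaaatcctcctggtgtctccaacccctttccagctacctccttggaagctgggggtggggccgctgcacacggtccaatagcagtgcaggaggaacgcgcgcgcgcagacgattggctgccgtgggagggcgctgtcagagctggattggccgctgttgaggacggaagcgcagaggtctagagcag
Hspa5: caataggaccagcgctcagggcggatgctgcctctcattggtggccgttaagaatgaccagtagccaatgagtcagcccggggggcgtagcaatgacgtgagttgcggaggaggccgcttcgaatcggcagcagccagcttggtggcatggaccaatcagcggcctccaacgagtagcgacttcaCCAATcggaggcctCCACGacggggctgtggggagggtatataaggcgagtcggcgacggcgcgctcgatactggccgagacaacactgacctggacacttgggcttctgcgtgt

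After doxycycline 5 of the 35 genes were lower and none was higher. The 5 were Sdf2l1, Hyou1, Syvn1, Herpud1 and Atf6, with falls of 20.1% to 45.0%, so they span the chaperones, the degradation complex and a stress sensor. The chaperones Hspa5, Hsp90b1, Calr, Canx and Hspa13 and all 5 disulfide isomerases did not pass the test. Passing means an adjusted p under 0.05 in edgeR's quasi-likelihood test over all genes, by which 2.18% of genes were lower and 2.84% higher; the members' shares were 14.3% and 0%. An unadjusted p under 0.05 was reached by 13 members on the lower side (10.8% of all genes) and by 1, Hspa13, on the higher side (13.1% of all genes). The groups did not overlap for 14 members that were lower (14.4% of all genes) and 3 that were higher (15.2% of all genes). The log2 fold change was below 0 for 27 of 35 members, against 48.9% of all genes, and its median was -0.14 against 0.01.

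The calls depended on which libraries were used. In edgeR, 0 members passed without untreated replicate 1, 2 or 3, and 10, 11 and 10 were then lower at an unadjusted p under 0.05, while over all genes 0.0786%, 0.166% and 0.0858% were lower. Without doxycycline replicate 3 there were also 0 (11 unadjusted), with 0.867% of all genes lower. Without replicate 1 there were 2 (Hyou1 and Atf6), with 1.56% of all genes lower, and without replicate 2 there were 10, with 5.69%. On all libraries DESeq2, given 20453 genes with no filter on low counts beforehand, called 10 members and 3.86% of those genes lower. By default DESeq2 sets low-count genes aside before adjustment, so that share may include genes it could not call. For limma-voom, on the 14809 filtered genes, 3 members and 1.86% of genes were lower. The 5 genes kept negative log2 fold changes in each of these fits, between -1.01 and -0.29 under all 13 alternatives run.

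**Figure D1:**
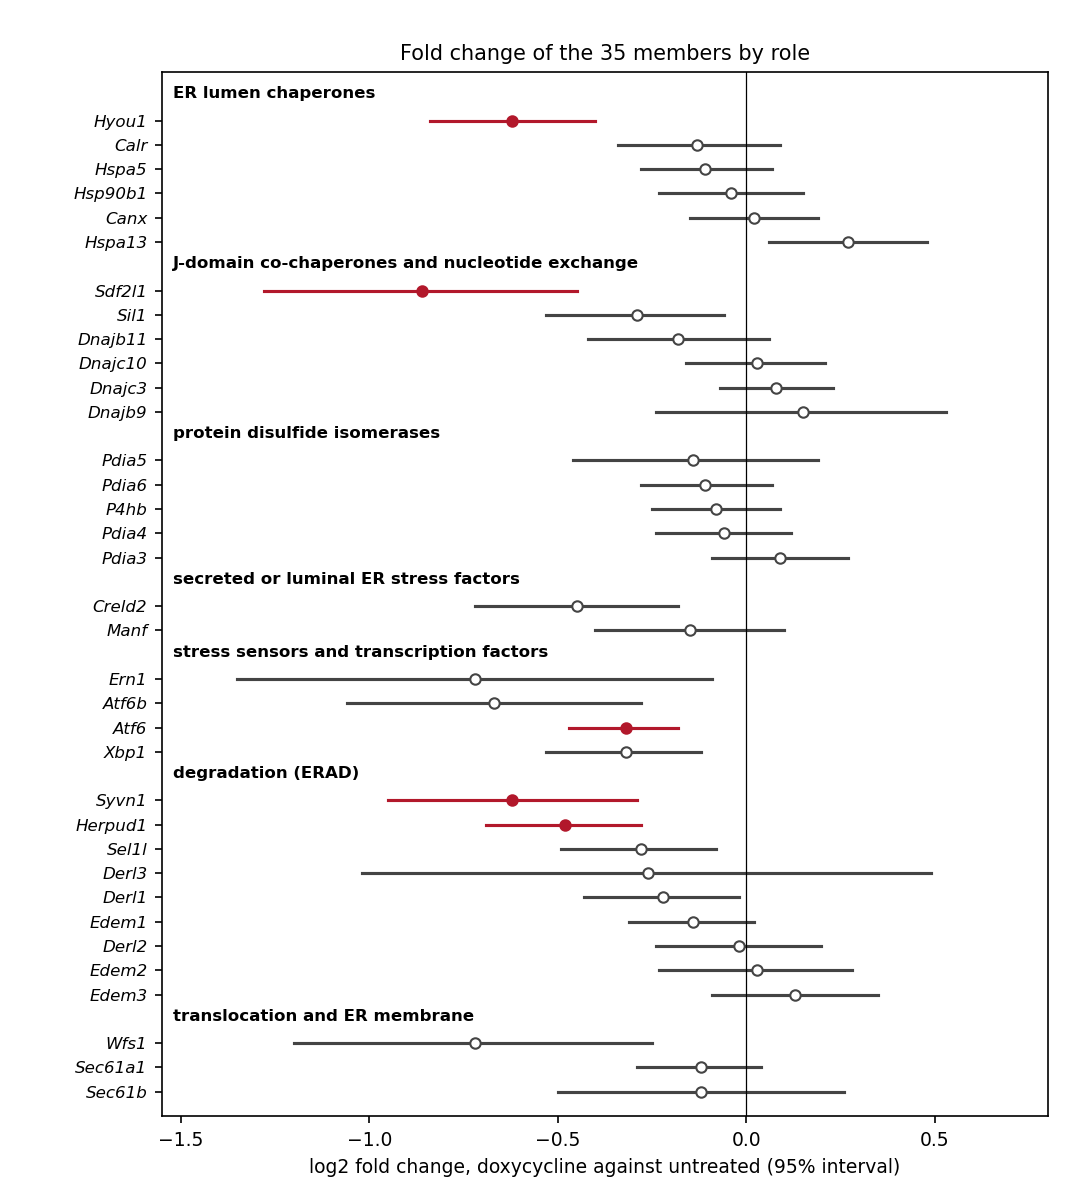
The log2 fold change of each of the 35 genes (x axis, doxycycline against untreated) with its 95% interval, grouped by role on the y axis. Filled red points mark the 5 genes with an adjusted p under 0.05, all left of 0, and open points the other 30; Sdf2l1 lies lowest at -0.86 and Hspa13 highest at 0.27.

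Among the chaperones of the ER lumen and membrane, 1 of 6 was lower, against 2.18% of all genes. Hyou1, an HSP70-related protein that helps BiP exchange nucleotide, had 276, 277 and 278 CPM in untreated replicates 1 to 3 and 203, 156 and 181 CPM in doxycycline replicates 1 to 3. The untreated libraries lay within a few CPM of each other, every doxycycline library was below them, and replicate 2 was the lowest. This gave a log2 fold change of -0.62 (SE 0.10, 95% interval -0.84 to -0.40, adjusted p = 0.0164).

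BiP itself, the master chaperone encoded by Hspa5, stood at 255, 230.1 and 247 CPM and at 242, 228 and 209.9 CPM in replicates 1, 2 and 3 of the untreated and the doxycycline group. The groups overlapped, and the log2 fold change was -0.11 (95% interval -0.28 to 0.07, adjusted p = 0.441). Hsp90b1, the HSP90 of the ER, was at 253, 226 and 237 CPM against 251, 233 and 212 CPM (-0.04, 95% interval -0.23 to 0.15, adjusted p = 0.815). Here too the ranges overlapped almost wholly. For the lectin chaperones that hold glycoproteins, the values were -0.13 for Calr (adjusted p = 0.458) and 0.02 for Canx (adjusted p = 0.899), with intervals of -0.34 to 0.09 and -0.15 to 0.19. Canx, the member of this role with the most counts, had 338, 309 and 308 CPM against 334, 333 and 301 CPM, which overlap. Hspa13, a microsomal relative of HSP70, was the member with the highest log2 fold change: 125, 121 and 110.0 CPM against 133, 159 and 138 CPM, without overlap (0.27, SE 0.09, adjusted p = 0.131). With offsets for GC content and length Hspa13 was at 0.07 (adjusted p = 0.724), and no member was then higher at an unadjusted p under 0.05.

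Levels of genes with more counts per exonic base were more compressed, as measured between the deepest and the shallowest untreated library. Hspa5, Hsp90b1, Calr, Canx, Pdia4 and P4hb each had 0.843 to 1.23 counts per exonic base in the untreated mean, and 208 genes of at least 1000 exonic bases lay at or above 0.8. Between untreated replicates 2 and 1, the deepest and the shallowest, totals differed by a ratio of 1.23. The median gene at 0.05 to 0.1 counts per base had the same ratio. The median ratio fell to 1.21 at 0.1 to 0.25, 1.18 at 0.25 to 0.5 and 1.14 at 0.5 to 0.8 counts per base. It was 1.11 at 0.8 to 1 and 1.08 above 1. Herpud1 (0.742 counts per base) and Hyou1 (0.561), both lower after doxycycline, lay in the 0.5 to 0.8 range, and the part of compression in their values was not tested. For the 6 genes the ratio was 1.02 to 1.10. Their normalised count was lowest in the deepest untreated library for 5 of 6, Canx being the exception, and lowest in the deepest doxycycline library, replicate 3, for 6 of 6. Their log2 fold changes ran from -0.13 to 0.02, and the part of this compression in them was not tested.

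Co-chaperones load clients onto BiP or reset it, and 1 of 6 was lower, against 2.18% of all genes. Sdf2l1, which works with the J-domain protein of Dnajb11 in keeping clients soluble, had 30.0, 23.7 and 33.5 CPM in the untreated replicates and 14.4, 16.5 and 17.0 CPM after doxycycline. All doxycycline libraries lay below the lowest untreated one, and the untreated libraries were the more spread. Its log2 fold change of -0.86 (SE 0.18, 95% interval -1.28 to -0.45, adjusted p = 0.0371) was the lowest of the 35, and it did not pass in limma-voom (adjusted p = 0.0521). Its partner Dnajb11 went from 80.5 ± 2.71 to 70.9 ± 8.36 CPM (SD, n = 3 each; -0.18, adjusted p = 0.335).

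The other J-domain proteins were near 0: Dnajc3, which encodes p58IPK, had a log2 fold change of 0.08 (adjusted p = 0.517), Dnajc10, a reductase that also aids degradation, 0.03 (adjusted p = 0.883), and Dnajb9, a classical IRE1 and XBP1 target, 0.15 (adjusted p = 0.655). The groups of Dnajc3 did not overlap, at 183, 183 and 176 CPM against 184, 199 and 189 CPM. Dnajc10 had 212, 202 and 198 CPM against 193, 229 and 202 CPM, so its groups overlapped. Dnajb9 had 32.5, 26.7 and 31.4 CPM against 40.8, 28.9 and 30.5 CPM, with doxycycline replicate 1 above all others. Sil1, the nucleotide exchange factor of BiP, was at 61.9, 60.2 and 62.8 CPM and at 54.6, 47.0 and 49.2 CPM. Its groups did not overlap, and its value of -0.29 (SE 0.10) missed the threshold (adjusted p = 0.128).

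Disulfide isomerases, which form and shuffle disulfide bonds, did not pass in edgeR in any of the 5 cases (0 also at an unadjusted p under 0.05, and 0 in DESeq2 and limma-voom). P4hb, the founding enzyme of the family, had 258, 227 and 241 CPM in untreated and 235, 237 and 216 CPM in doxycycline libraries. The 2 ranges overlapped, and the log2 fold change was -0.08 (95% interval -0.25 to 0.09, adjusted p = 0.58). Pdia3, the partner of calnexin and calreticulin, was at 0.09, Pdia4 at -0.06, Pdia6 at -0.11 and Pdia5 at -0.14, with adjusted p from 0.446 to 0.682. Pdia3 was the one of the 5 whose groups did not overlap, at 129, 128 and 125 CPM against 146, 129.9 and 131 CPM. Across the 5 genes the intervals ran from -0.46 to 0.27, and those of the 4 more abundant ones from -0.28 to 0.27.

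The 2 genes grouped as secreted or luminal ER stress factors, Creld2 and Manf, had negative values. Creld2, an induced ER protein that can be secreted, had 53.5, 45.4 and 53.0 CPM in the untreated replicates and 36.2, 35.6 and 39.5 CPM after doxycycline. The groups did not overlap, but the change of -0.45 (SE 0.12, 95% interval -0.72 to -0.18) missed the threshold in edgeR (adjusted p = 0.0661), while DESeq2 called it and so did edgeR without doxycycline replicate 2. Manf, a secreted protective factor, had 69.7, 57.4 and 64.3 CPM against 61.4, 56.1 and 54.8 CPM, with overlap (-0.15, adjusted p = 0.445).

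**Figure D2:**
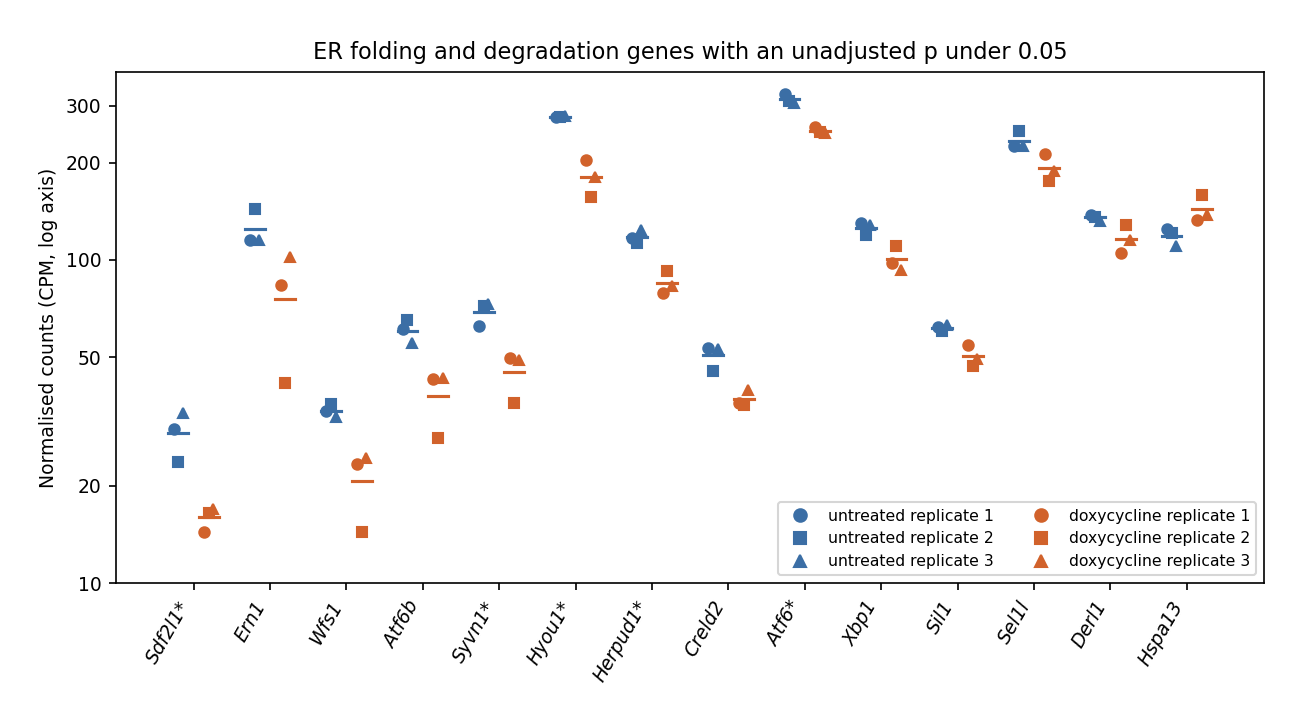
Normalised counts (CPM, log axis) in each library for the 14 genes with an unadjusted p under 0.05, ordered by log2 fold change; symbols mark replicates 1 to 3, bars the group means, and asterisks an adjusted p under 0.05. In each of the 13 genes on the left the 3 doxycycline points lie below the 3 untreated points, and in Hspa13 they lie above.

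The sensors and the transcription factors of the unfolded protein response had negative log2 fold changes in 4 of 4 genes, and 1 passed. Over all genes 48.9% were negative and 2.18% were called lower, and 4 genes are few for such counts. Atf6 had 326, 310.4 and 305 CPM untreated and 257, 249 and 247 CPM after doxycycline. The libraries of each group were close together and the groups were apart, for a log2 fold change of -0.32 (SE 0.06, 95% interval -0.47 to -0.18, adjusted p = 0.0286). Its relative Atf6b was at 60.9, 65.1 and 55.3 CPM against 42.8, 28.2 and 43.1 CPM (-0.67, SE 0.17, adjusted p = 0.0622). Doxycycline replicate 2 was the low one there.

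Ern1, the IRE1 sensor, varied most: 115, 144 and 115 CPM in the untreated libraries and 83.4, 41.7 and 102 CPM after doxycycline. Replicate 2 lay far under the other doxycycline libraries, and the fold change of -0.72 had an SE of 0.28 (95% interval -1.35 to -0.09, adjusted p = 0.159). It was -0.43 without doxycycline replicate 2 and -1.0 without replicate 3. For Xbp1, the substrate of IRE1, the values were 130.0, 119 and 128 CPM and 97.9, 110.3 and 93.3 CPM. In this gene doxycycline replicate 2 was the highest of its group, and the fold change of -0.32 (SE 0.09) did not pass (adjusted p = 0.079). DESeq2 called Atf6, Atf6b, Ern1 and Xbp1 lower.

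Degradation held 2 of the 5 calls, of 9 genes, while 2.18% of all genes were called lower. Herpud1, a membrane protein that gathers the HRD1 complex and is induced by both ATF6 and ATF4, had 117, 113 and 124 CPM in the untreated replicates and 78.8, 92.1 and 83.0 CPM after doxycycline. The highest doxycycline library, replicate 2, lay below the lowest untreated one, which gave -0.48 on the log2 scale (SE 0.09, 95% interval -0.69 to -0.28, adjusted p = 0.0264). Its promoter, printed above, is the only member window with the ATF4 composite letters, which 3.95% of all windows hold. They lie on its opposite strand, and the part of this site in the fall of Herpud1 was not tested. Syvn1, the ubiquitin ligase HRD1, was at 62.5, 72.0 and 72.9 CPM and at 49.8, 36.1 and 48.9 CPM, again without overlap (-0.62, SE 0.14, 95% interval -0.95 to -0.29, adjusted p = 0.0469). This call is near the threshold: upper quartile scaling gave an adjusted p of 0.0502. Syvn1 shares 91 exonic bases (1.87%) with Mrpl49 on the opposite strand in the GENCODE M21 annotation, and whether the counting used strand is not given in the sources used here. Hsp90b1, Sec61a1 and Manf share 10.3%, 8.16% and up to 4.71% of their exonic bases with a gene on the opposite strand, so their counts carry the same uncertainty.

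The partner of HRD1, the adaptor Sel1l, was at 225, 249.6 and 225 CPM against 213, 175 and 188 CPM (-0.28, SE 0.09, adjusted p = 0.108), and it passed with offsets for GC content and length (adjusted p = 0.0354). The groups did not overlap. Derl1, a derlin of the membrane channel, was at 138, 136 and 132 CPM against 105, 128 and 115 CPM (-0.22, adjusted p = 0.18), also without overlap. Its relatives Derl2 (-0.02, adjusted p = 0.936) and Derl3 (-0.26, adjusted p = 0.681) overlapped, and Derl3 was scarce, at 3.70 ± 0.874 and 3.10 ± 0.667 CPM. The mannosidase-like EDEM genes had values of -0.14 for Edem1, 0.03 for Edem2 and 0.13 for Edem3 (adjusted p = 0.283, 0.912 and 0.46). Edem1 had 196, 193 and 203 CPM against 166, 188 and 184 CPM without overlap.

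No gene of the last group, translocation and the ER membrane, passed in edgeR. At an unadjusted p under 0.05, 1 of 3 was lower, Wfs1, against 10.8% of all genes. Wfs1, the membrane protein wolframin, which is linked to calcium and ATF6 control, was at 34.0, 35.9 and 32.6 CPM and at 23.4, 14.4 and 24.4 CPM. The untreated libraries were tight and doxycycline replicate 2 was low, for a fold change of -0.72 (SE 0.21, 95% interval -1.20 to -0.25, adjusted p = 0.0847). DESeq2 called Wfs1 lower (adjusted p = 0.0105), as did edgeR without doxycycline replicate 2 (-0.52, adjusted p = 0.0320). The Sec61 channel subunits were at -0.12 for both Sec61a1 (adjusted p = 0.346) and Sec61b (adjusted p = 0.717). Sec61a1, the pore, had 282, 259 and 274 CPM against 238, 269 and 241 CPM, so the groups overlapped.

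The libraries of the doxycycline group did not order these genes in one way. Replicate 2 was the lowest of its group for 8 of the 13 genes with lower values at an unadjusted p under 0.05 (Ern1, Wfs1, Atf6b, Syvn1, Hyou1, Creld2, Sil1 and Sel1l) and the highest for 3 (Xbp1, Herpud1 and Derl1). Over all 35 it was lowest for 11 and highest for 15, and over all genes tested it was lowest for 40.5% and highest for 37.0%. This library also had the highest muscle marker sum, 2738 CPM.

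**Figure D3:**
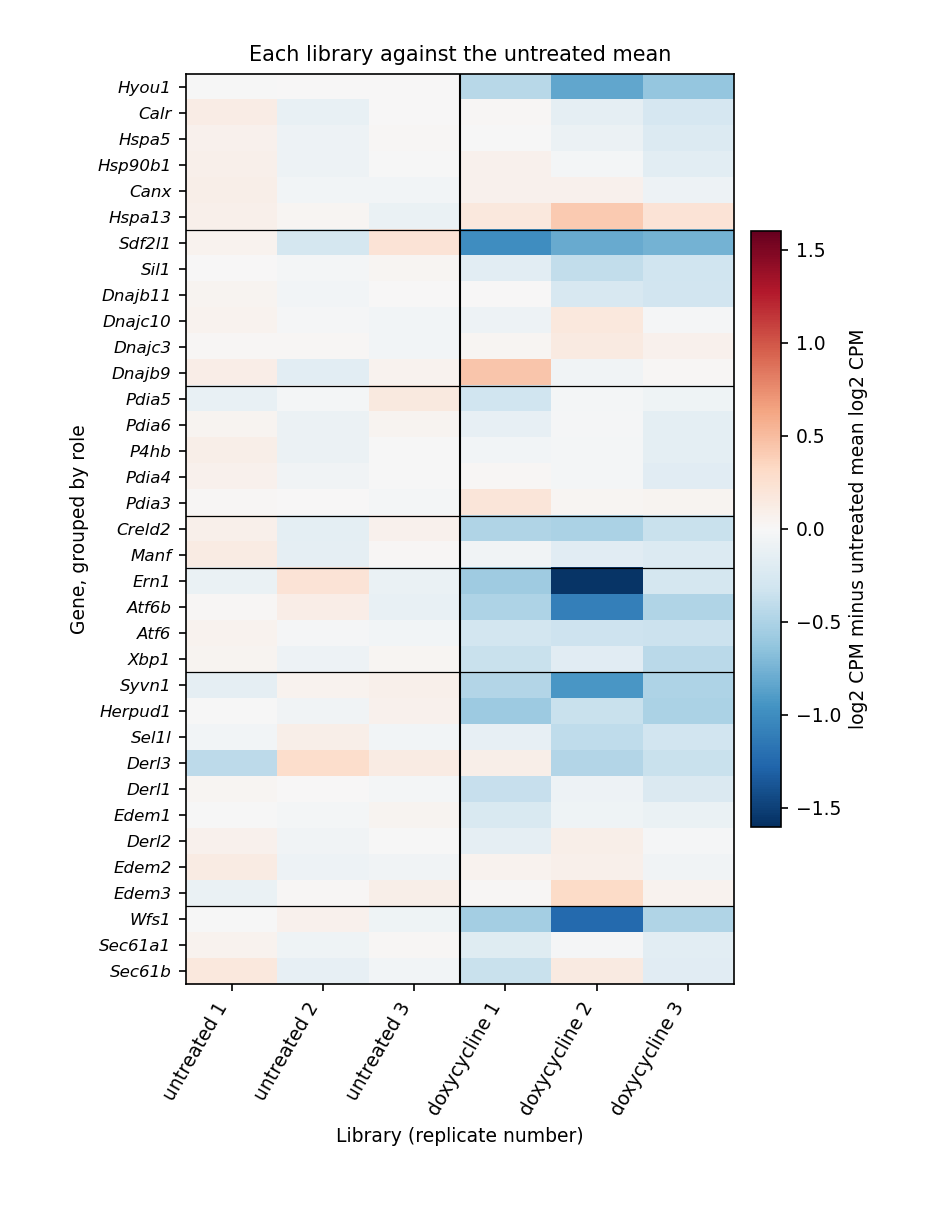
Each library (x axis) against the untreated mean for each gene (y axis, grouped by role), as log2 CPM minus the untreated mean log2 CPM, with blue for lower. Blue in all 3 doxycycline columns marks Hyou1, Sdf2l1, Atf6, Syvn1, Herpud1 and others, while Ern1, Atf6b and Wfs1 are darkest in doxycycline replicate 2.

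Per length, the members spanned a wide range of levels in the untreated tumours. P4hb led at 84.5 ± 5.38 CPM per kb of exon, followed by Pdia4 at 71.5 ± 3.20, Canx at 67.8 ± 3.56, Calr at 61.0 ± 5.03, Hsp90b1 at 59.1 ± 3.35 and Hspa5 at 57.7 ± 3.03 CPM per kb (SD, n = 3). The libraries of P4hb lay above all those of Pdia4, while those of Pdia4 and Canx overlapped, and those of Calr, Hsp90b1 and Hspa5 did as well. Of the 5 genes that fell, Herpud1 had the highest level, 50.7 ± 2.38 CPM per kb, then Hyou1 with 38.3 ± 0.156, Atf6 with 34.0 ± 1.20, Sdf2l1 with 26.2 ± 4.48 and Syvn1 with 14.2 ± 1.19 CPM per kb. Derl3 was the lowest of all at 1.86 ± 0.439 CPM per kb. The leading 6 are the genes at or above 0.8 counts per base described above, of which Pdia4 and P4hb lay above 1. The compression was graded and reached genes below 0.8.

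Base composition is given here as a description, with no test of its difference. The 13 members with lower values at an unadjusted p under 0.05 had a median GC content of 53.0% in their longest transcript, the other 22 members (Hspa13 among them, at 39.8%) 47.2%, and all genes 49.8%. The 5 genes that passed also had a median of 53.0%. Over the whole table, genes called lower had a median of 54.5% and genes called higher 46.0%. With offsets for GC content and length, the 5 genes stayed lower and Sel1l joined them, with 2.16% of all genes lower. The log2 fold change was then below 0 for 32 of 35 members and for 54.9% of all genes, with medians of -0.17 and -0.03.

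The wider machinery of the ER showed few calls at the adjusted threshold, by which 2.18% of all genes were lower and 2.84% higher. At an unadjusted p under 0.05 these shares of all genes were 10.8% and 13.1%. Of 30 other folding genes none was lower and 1 was higher, the thioredoxin-related membrane protein gene Tmx4. At an unadjusted p under 0.05, 6 were lower and 4 higher, and DESeq2 called 2 lower and 2 higher. Tmx4 had 119, 117 and 116 CPM against 139, 156 and 150.2 CPM (0.34, adjusted p = 0.041). The median log2 fold change of the 30 genes was -0.07. Of 25 other ERAD genes in the table, none passed in edgeR or limma-voom and 1 was higher in DESeq2. At an unadjusted p under 0.05, 2 were lower and 4 higher, and the median was -0.04. The lectin gene Erlec1 had the smallest p (0.44, adjusted p = 0.0585, and 0.26 with offsets for GC content and length). None of 23 other translocation genes passed in edgeR, DESeq2 or limma-voom. At an unadjusted p under 0.05, 2 were lower and 1 higher, and the median was -0.01. Sec63, the J-domain partner of the channel, was at 0.25 (adjusted p = 0.0709, and 0.10 with those offsets). Of 25 N-glycosylation genes none passed in edgeR, and 6 were lower at an unadjusted p under 0.05. DESeq2 called 3 lower and limma-voom 1. Negative values were found for 22, against 48.9% of all genes, and the median was -0.09. The mannosyltransferase gene Alg3 was at -0.62 (adjusted p = 0.0506). Of 24 ER exit and retrieval genes 1 was lower, Preb, the exchange factor that starts COPII coats (-0.44, adjusted p = 0.0485; median -0.02). The call of Preb was lost when any library but doxycycline replicate 2 was left out, and that of Tmx4 without any untreated replicate or doxycycline replicate 3; with offsets for GC content and length Tmx4 was at 0.14 (adjusted p = 0.426).

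Sensors and transducers of the stress response outside the 35 genes were tested too. Of 16, 3 were lower, against 2.18% of all genes, and none higher (median -0.05). The 3 were Ddit3, which encodes CHOP, the pseudokinase gene Trib3, and Ppp1r15a, which encodes the phosphatase subunit GADD34. Ddit3 had 49.6, 43.9 and 48.7 CPM untreated and 22.3, 21.2 and 26.3 CPM after doxycycline (-1.03, adjusted p = 0.012). Trib3 had 111, 112 and 110.2 CPM against 29.8, 44.0 and 53.9 CPM (-1.38, adjusted p = 0.0126), and Ppp1r15a was at -0.92 (adjusted p = 0.0324). In each of these the doxycycline libraries lay under all untreated ones. PERK itself, Eif2ak3, was at 0.01 (95% interval -0.23 to 0.24, adjusted p = 0.983). Without untreated replicate 1, 2 or 3, 0, 1 and 0 of the 16 were lower, without doxycycline replicate 2 there were 5, and without doxycycline replicate 3 there were 2.

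The integrated stress response (ISR) list, chosen knowing from earlier results of these data that it falls, shares Atf4, Ddit3, Trib3 and Ppp1r15a with these sensors. It had 17 of 22 lower, against 2.18% of all genes, and a median of -0.82, and 3 of the 17 are the calls just given. The 18 genes that it does not share had 14 lower and a median of -0.76. Its examples Gdf15 (-2.47, adjusted p = 0.00174), Aldh1l2 (-0.87, adjusted p = 0.00413) and Atf5 (-1.04, adjusted p = 0.00546) all had doxycycline libraries below every untreated one. The count was 3, 5 and 4 without untreated replicate 1, 2 or 3, and 11 without doxycycline replicate 3. The ISR list and the 35 genes were compared by these counts and medians alone, with no test of their difference. The muscle markers, of which 10 of 15 were higher (1 in limma-voom and 14 in DESeq2), had a median of 3.60 on the log2 scale.

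**Figure D4:**
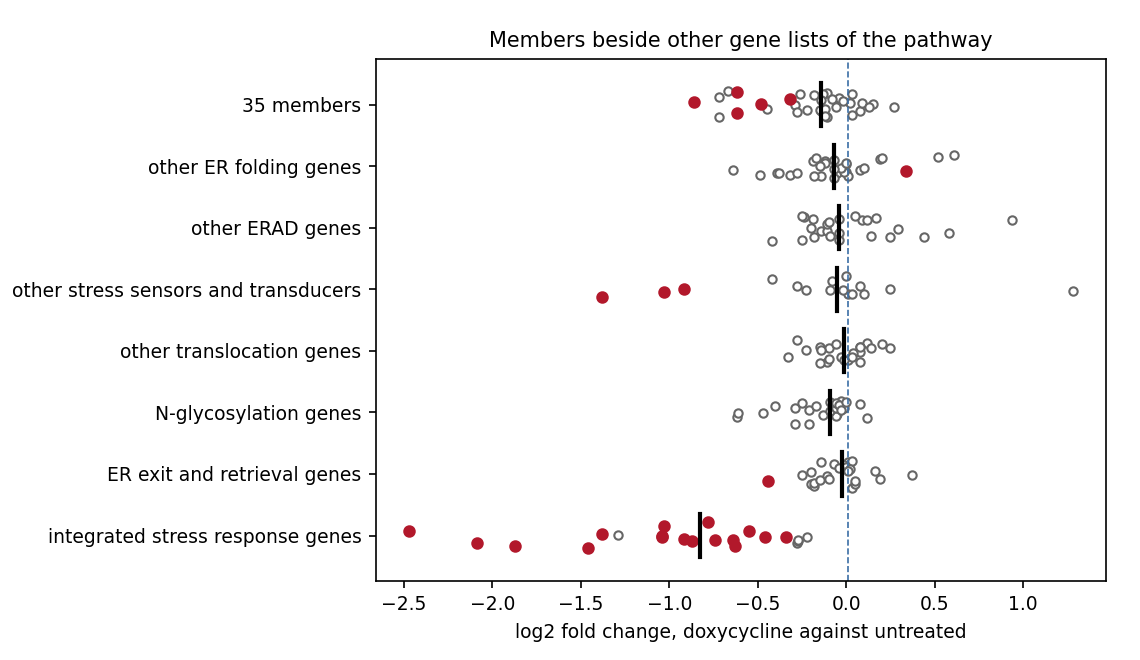
The log2 fold change (x axis) of the 35 genes and of 7 other lists (y axis), 1 point a gene, filled red at an adjusted p under 0.05; black bars are list medians and the dashed line is the median of all genes, 0.01. The members' median is -0.14, those of the 6 other ER lists lie between -0.09 and -0.01, and that of the integrated stress response list is -0.82.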

How the data were processed

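Read counts per gene, as the authors deposited them for 6 libraries, were analysed. Per the submitters' processing notes TopHat2 2.0.8, TopHat and HTSeq were used on mm9, and their roles are not given. Per the labels' protocols RNA was depleted of ribosomal RNA before TruSeq library preparation. Rows with no gene name (90 of 21761, 0.0361% to 0.0402% of counts) were left out. In R 4.3.3, edgeR 4.0.16 filtered genes (filterByExpr), scaled libraries by TMM (factors 0.985 to 1.02) and tested doxycycline against untreated with the robust quasi-likelihood test, two-sided, with Benjamini-Hochberg adjustment over all 14809 genes; the code was tested on simulated data. The SE is the log2 fold change over the square root of F. CPM use TMM-scaled totals. Alternatives used DESeq2 1.42.0, limma 3.58.1 (voom), other scaling, no filter, a replicate block, GC and length offsets, and each library left out. Lengths and GC content come from GENCODE M21 (GRCm38), another build than the authors', with a value for 99.3% of genes tested; promoters come from RefSeq (GRCm38.p6).

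The members and lists were chosen with earlier results of these data known. All 35 members are described, those at an unadjusted p under 0.05 and the most counted gene of each role by library, and of other lists up to 3 called genes in each direction or the one with the smallest p; a few more (Eif2ak3, Edem1, Dnajb9, Alb, Ttr, Igj and Mzb1, among others) were named after their values were seen. Protein sequences were not used here. Same-numbered libraries did not deviate together (correlations -0.00976, -0.0747 and 0.0155), so numbers were not taken as pairs.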

Additional observations from a re-analysis of the deposited data

How the results depend on the processing

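With 3 libraries a group and totals of 12090309 to 16169043 counts, small changes are hard to call, and counts of abundant genes level off. DESeq2 called 10 members lower, and of all genes lower and all genes higher 790 and 877. For limma-voom these were 3, 276 and 251. With the replicate block, whose numbers pair nothing in the labels, they were 1, 179 and 215, and Hyou1 was the member that still passed. Leaving out 1 library gave 0 to 10 members lower, 12 to 866 genes lower and 11 to 1244 higher, and 3 to 20 integrated stress response genes lower. Scaling by upper quartile shifted the median of all genes from 0.01 to 0.04 and the split to 277 lower and 535 higher.

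For the other lists, folding genes lower were 1 with no filter, 2 in DESeq2 and 2 with GC and length offsets, and higher 2 in DESeq2 and 0 with no filter, limma-voom, the replicate block and the offsets; without 1 library they were 0 to 3 and 0 to 2. ERAD genes higher were 1 with upper quartile scaling and 1 in DESeq2 (0 to 1 without 1 library, with 0 to 2 lower). Translocation genes higher were 1 with upper quartile scaling (0 to 1 lower without 1 library). N-glycosylation genes lower were 1 with RLE scaling, 3 in DESeq2 and 1 in limma-voom, and 0 to 3 without 1 library. ER exit genes lower were 0 with upper quartile scaling, limma-voom and the replicate block, and 0 to 1 without 1 library. Other sensors lower were 0 to 5 and higher 0 to 1 without 1 library. On the given strand alone 0 members had the ATF4 composite site.

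Among members that did not pass, the offsets turned Dnajb9 to -0.03, Dnajc3 to -0.05, Dnajc10 to -0.08, Canx to -0.13 and Edem3 to -0.00, and upper quartile scaling turned Derl2 to 0.02. Eif2ak3, near 0, was at -0.00 with RLE scaling, -0.01 in DESeq2 and -0.07 to 0.06 without 1 library. Without 1 library Canx ran from -0.02 to 0.07, Derl2 from -0.08 to 0.04, Dnajb9 from -0.02 to 0.24, Dnajc10 from -0.05 to 0.07, Edem2 from -0.03 to 0.09 and Hsp90b1 from -0.10 to 0.02. The causes were not tested.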
